A study of Sus scrofa with 12 samples.

Results

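Extracellular vesicles shed by bone marrow mesenchymal stromal cells on microcarriers in a stirred spinner flask were compared with vesicles shed by cells of the same animals on flat tissue culture plates. The comparison took every sample titled with either culture method, 4 microcarrier and 4 plate libraries of the 12 in the series, and paired them by the donor number in the title over all 252 mature pig microRNAs (miRNAs) listed. Each of the 4 donors was a wild-type juvenile Yucatan minipig whose marrow cells had been expanded on plates to passage 3 and frozen. For the microcarrier group, cells were seeded on microcarriers in serum-free medium for 2 hours before 10% fetal bovine serum was added. For the plate group, cells were seeded at 5000 cells/cm2 on 15 cm plates in medium with 10% fetal bovine serum. The remaining 4 libraries came from the same donors in a perfusion bioreactor with medium circulating over a scaffold at 4 mL/min. Vesicles were collected from conditioned medium by differential ultracentrifugation, and whether the serum had been cleared of its own vesicles is not given in the sources used here.

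A miRNA is cut from a hairpin precursor whose arms, 5p and 3p, can each give a mature strand, and the mature strand guides repression of messages that match its seed. Stromal cells export miRNAs in vesicles, and much of the activity ascribed to stromal cell therapy is studied through this cargo. Microcarrier culture places the cells on beads in stirred medium, where oxygen supply, fluid shear and the stiffness and curvature of the surface can differ from a flat plate.

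The values are normalized read counts, that is, reads per mature miRNA divided by 1 factor per library. They give relative levels within a vesicle preparation, so fewer vesicles from a kind of cell and less of a miRNA per vesicle cannot be told apart. Reads per library, computed from the steps between values, were 607776 to 2244584 on microcarriers and 264407 to 3253003 on plates, and 238 to 251 miRNAs were listed above 0 on microcarriers against 224 to 250 on plates. The 14 rows that matched stromal markers held 51.8% to 59.2% of the normalized counts on microcarriers and 45.3% to 53.5% on plates. Of 10 epithelial marker names, only miR-183, miR-182 and miR-96-5p matched a row. These 3 rows held 0.0277% to 0.0621% on microcarriers and 0.0159% to 0.0494% on plates.

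The same 10 miRNAs carried most of the cargo in both cultures, 73.1% ± 1.87 on microcarriers and 72.4% ± 1.50 on plates (SD, n = 4 each; exact two-sided permutation p = 0.571). Their sum was higher on microcarriers in 4 of 4 donors, and exact sign flips within donors gave p = 0.125, the smallest that 4 donors allow. miR-21-5p, an abundant stromal miRNA that represses PDCD4, held 27.6% ± 5.13 on microcarriers and 21.7% ± 4.18 on plates, and was higher in 4 of 4 donors. miR-27b-3p, which represses the adipogenic factor PPARG in human and mouse cells, held 9.63% ± 3.75 on microcarriers and 6.62% ± 4.03 on plates. miR-148a-3p held 5.37%, 4.54%, 4.40% and 4.08% in microcarrier donors 1 to 4, against 6.76%, 6.35%, 8.77% and 7.27% in plate donors 1 to 4, so every microcarrier library lay below every plate library. For miR-143-3p the microcarrier shares were 3.60%, 3.82%, 4.88% and 2.23%, against plate shares of 5.26%, 6.33%, 8.40% and 5.04%, again without overlap. Each of these 2 separations has p = 0.0286 (exact permutation, two-sided), below which groups of 4 and 4 cannot go. Neither passed after adjustment over the 10 miRNAs (adjusted p = 0.143 for each). That permutation does not use the donor pairing, and exact sign flips within donors gave p = 0.125 for each. Summed over all 252 miRNAs, gains in mean share came to 14.9 percentage points. Of these miR-21-5p made up 5.85, miR-27b-3p 3.01 and miR-100 1.32, while the opposite shifts were -2.69 for miR-148a-3p, -2.62 for miR-143-3p and -2.29 for let-7a.

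**Figure D1:**
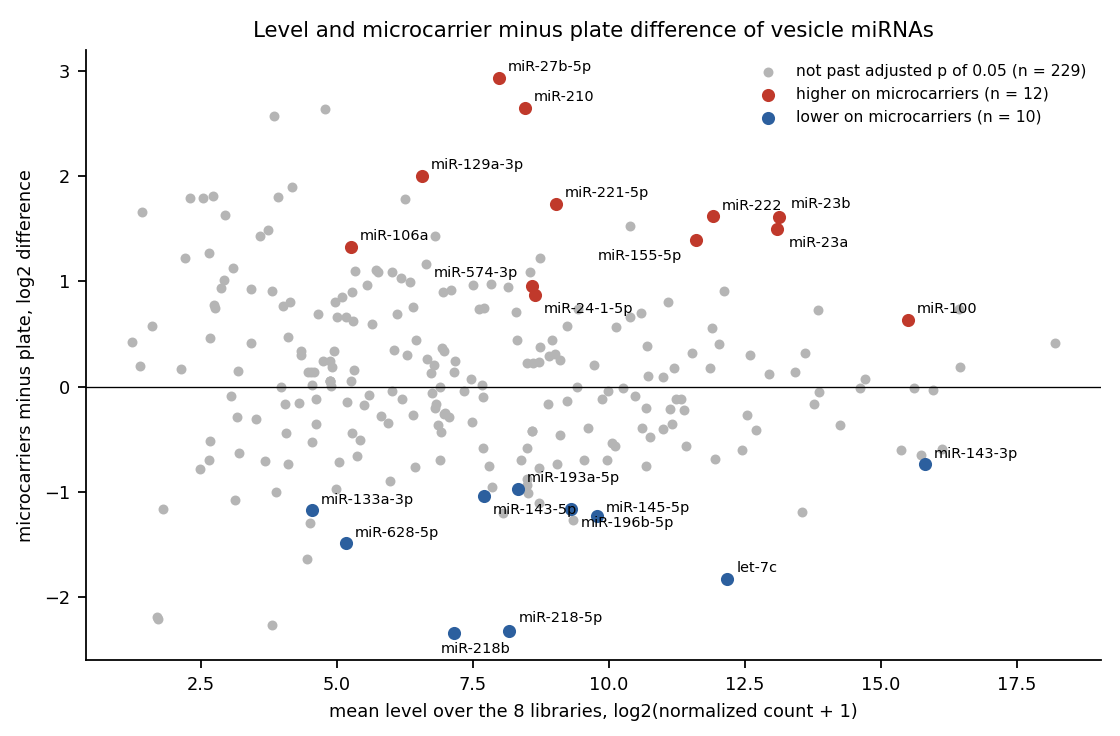
Each point is a miRNA, all but miR-10390, which the plates list at 0, with its mean level over the 8 libraries on the x axis, as log2(normalized count + 1), and its fitted microcarrier minus plate log2 difference on the y axis. The 12 higher and 10 lower miRNAs past an adjusted p of 0.05 are named and lie at both low and high levels.

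In the limma fit with donor as a block, 23 of 252 miRNAs (9.13%) had an adjusted p under 0.05. Of these, 13 (5.16% of those tested) were higher and 10 (3.97%) lower on microcarriers, and 75 had an unadjusted p under 0.05. The counts in each list of miRNAs are to be read against these shares. Scaled to library totals, which lowered the median log2 difference of all miRNAs to 0.04 against 0.11 with the deposited scaling, the split was 9 higher and 12 lower. Calls came from every level of abundance, with 4 of 21 miRNAs that averaged 10000 normalized counts or more, 4 of 41 between 1000 and 10000, 11 of 83 between 100 and 1000, and 4 of 107 under 100. In the last class the median SE of the log2 difference was 0.49, against 0.22 in the most abundant class. Direction was shared by the 4 donors in 21 of the 23 calls, 11 higher and 10 lower, against 36.5% of the whole table (18.7% higher and 17.9% lower). The microcarrier and plate libraries did not overlap in 15 of the 23, 9 above and 6 below, against 11.9% of the whole table (5.16% above and 6.75% below). The 23 were picked from these same values by a fit within donors, which favours such miRNAs. Both counts describe the calls and are not independent support for them.

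The number of calls depended on the donor block and on single libraries. It was 6 in the fit without the donor block (2.38%), all of them among the 23. In the paired fit of the 8 microcarrier and plate libraries alone it was 7, so 16 of the 23 were not called unless the perfusion libraries also entered the fit. The 7 were miR-10390, miR-27b-5p, miR-210, let-7c, miR-628-5p and both rows of miR-218, and the other 16 had adjusted p of 0.0632 to 0.112 at the same log2 differences. Library totals ended the calls of miR-129a-3p, miR-222, miR-24-1-5p and miR-100 (adjusted p of 0.0523 to 0.0556), and a pseudocount of 0.1 those of miR-129a-3p, miR-222 and miR-133a-3p (0.0533 to 0.0596). With donor 4 left out in both cultures the count was 5, of which 4 were among the 23. It was 36 without microcarrier donor 1, 8 without microcarrier donor 2, 6 without microcarrier donor 3 and 12 without microcarrier donor 4. Among plates it was 8 without donor 2, 8 without donor 3 and 11 without donor 4. The calls of miR-210, miR-27b-5p, let-7c and miR-10390 held under each of the 20 alternatives run.

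**Figure D2:**
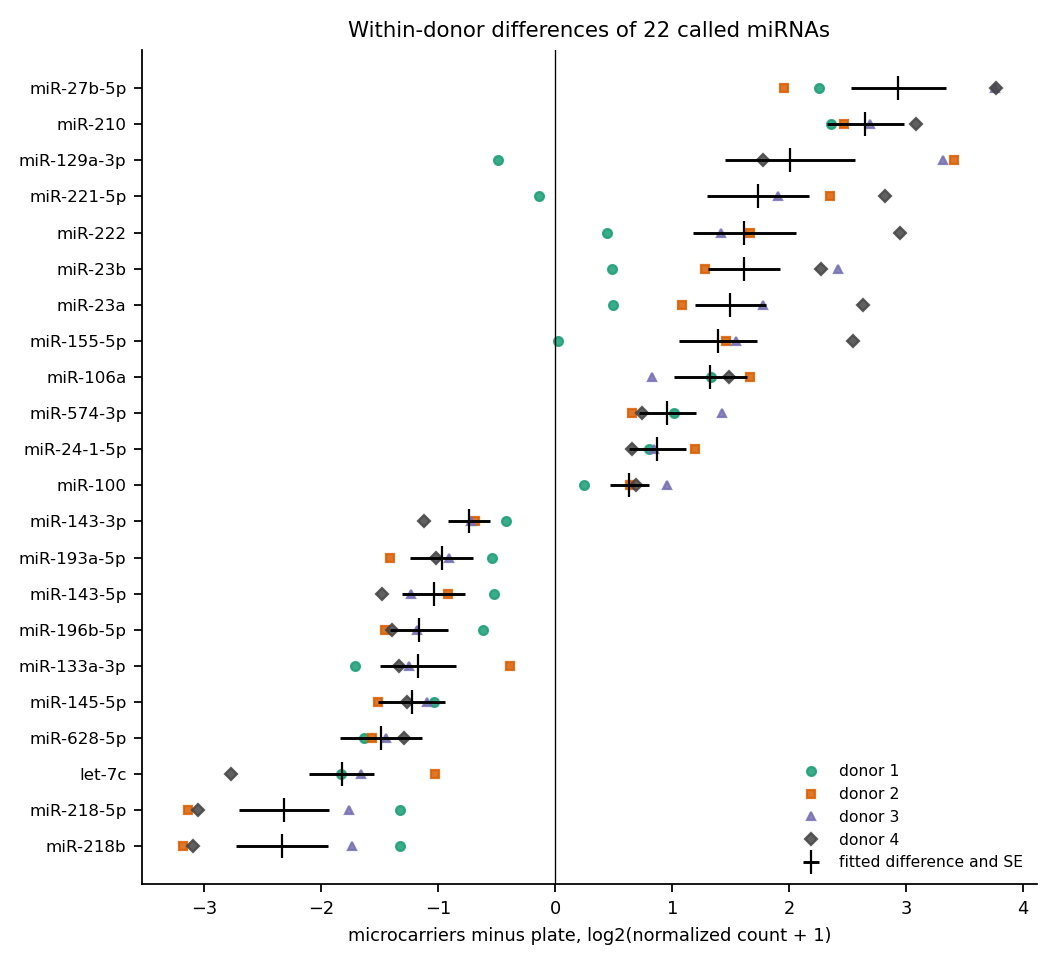
Microcarrier minus plate differences, on the log2(normalized count + 1) scale, of the 22 called miRNAs with a level above 0 on plates. Symbols are the 4 donors and black bars the fitted difference with its SE. miR-129a-3p and miR-221-5p have donor 1 on the other side of 0, and the other 20 have all 4 donors on 1 side.

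The hypoxia-induced miR-210, a target of HIF-1 that represses mitochondrial iron-sulfur assembly, gave the smallest adjusted p in the comparison. It stood at 401, 906, 1164 and 1399 normalized counts in microcarrier donors 1 to 4, against 77.6, 163, 179 and 164 in plate donors 1 to 4. Every microcarrier library was above every plate library, and the within-donor log2 differences were 2.36, 2.47, 2.69 and 3.08. The fitted log2 difference was 2.65 ± 0.33 (SE; adjusted p = 0.00128). miR-210 was also higher on microcarriers than in perfusion, by 1.15 ± 0.33 (adjusted p = 0.0272), a comparison that shares the microcarrier libraries and in which 23.4% of miRNAs passed (13.5% higher and 9.92% lower). Of 15 hypoxia-linked miRNAs measured, 4 were higher (miR-210, miR-23a, miR-23b and miR-155-5p), none was lower and 11 were not called, where 5.16% of all miRNAs were higher, with a median log2 difference of 0.32 against 0.11 over all miRNAs. miR-26a, also on the list, differed by -0.60 ± 0.27 (adjusted p = 0.157).

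The miR-23, miR-27 and miR-24 genes lie in 2 neighbouring groups, MIR23A with MIR27A and MIR24-1, and MIR23B with MIR27B and MIR24-2, in the RefSeq table of Sscrofa11.1. Of 8 mature miRNAs measured from them, 4 were higher on microcarriers, none was lower and 4 were not called, where 5.16% of all miRNAs were higher. Their median log2 difference was 0.92, against 0.11 over all miRNAs. miR-23b stood at 14089, 18605, 10283 and 22853 normalized counts in microcarrier donors 1 to 4, against 10080.4, 7676, 1918 and 4722 in plate donors 1 to 4. For miR-23a, which shares its seed with miR-23b, the microcarrier values were 8634, 12430.2, 16956 and 25649 and the plate values 6119, 5863, 4939 and 4134. Both were above plates in each donor without overlap of the groups. The log2 differences were 1.61 ± 0.31 for miR-23b (adjusted p = 0.00861) and 1.50 ± 0.30 for miR-23a (adjusted p = 0.0133). Donor 1 gave the smallest difference of both, 0.48 and 0.50.

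miR-24-1-5p, the minor arm of a miR-24 hairpin, rose by 0.87 ± 0.25 (adjusted p = 0.0476), with 468 to 617 normalized counts on microcarriers and 261 to 353 on plates. The major arm miR-24-3p differed by -0.05 ± 0.26 and miR-27a by 0.32 ± 0.22. Both were uncalled, at adjusted p of 0.927 and 0.334. The call of miR-23b ended without microcarrier donor 3 (log2 difference 1.43), that of miR-23a without microcarrier donor 3 or plate donor 3 (1.42 to 1.44), and that of miR-24-1-5p when any library but microcarrier donor 4 was left out (0.79 to 0.95). The paired fit of 8 libraries ended the calls of miR-23b (adjusted p = 0.0632) and miR-23a (adjusted p = 0.0775). Without the donor block the adjusted p was 0.109 for miR-23b and 0.11 for miR-24-1-5p.

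**Figure D3:**
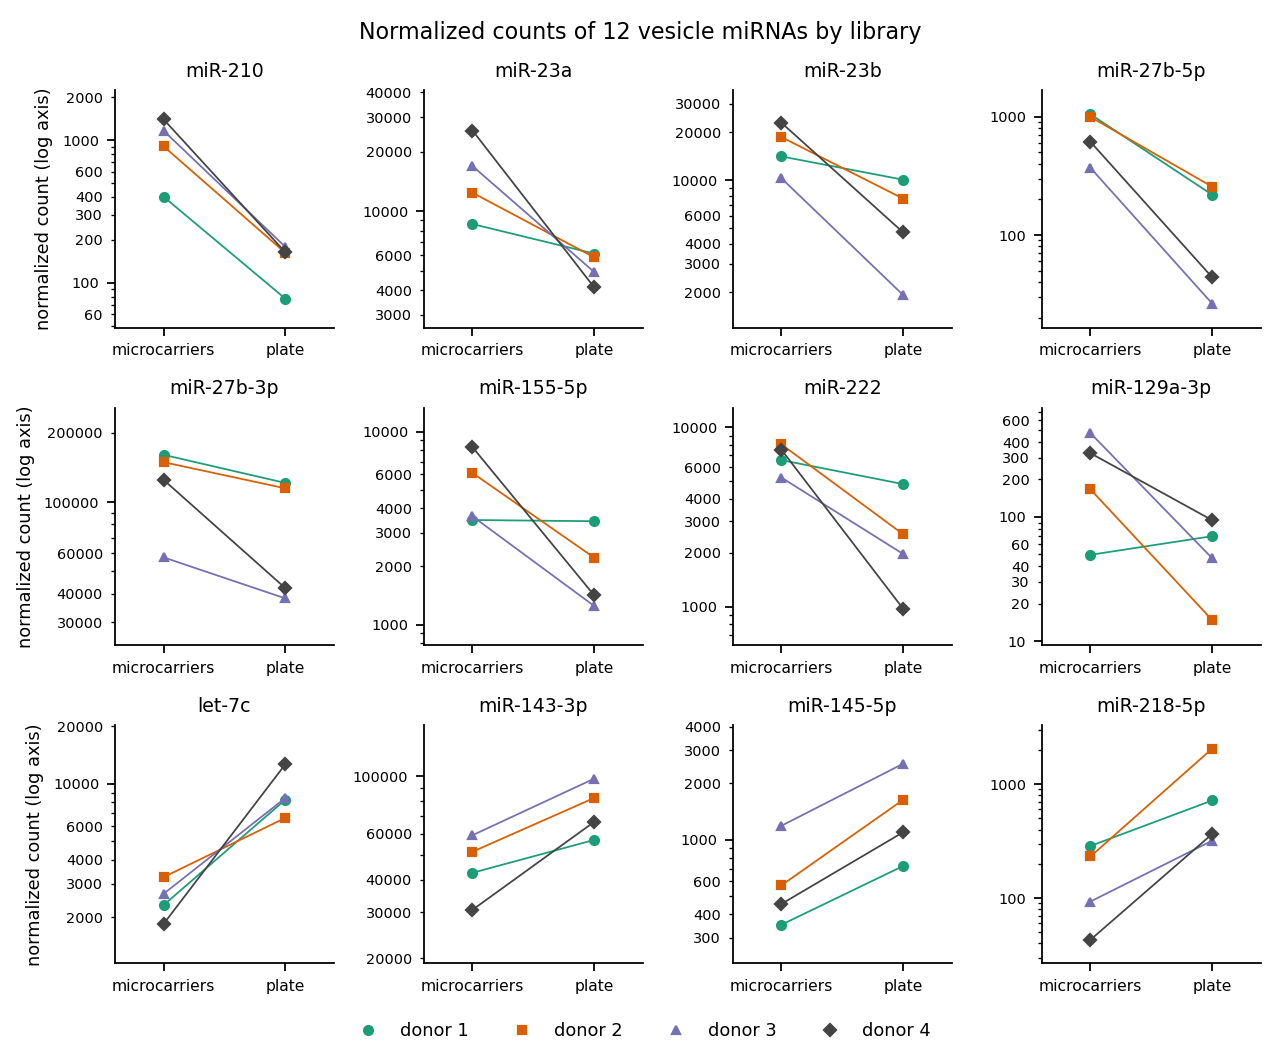
Normalized counts on a log axis of 12 miRNAs in each microcarrier and plate library, with lines that join the 2 libraries of a donor. Every microcarrier library lies above every plate library for miR-210, miR-23a, miR-23b, miR-27b-5p, miR-222 and, narrowly, miR-155-5p. For let-7c and miR-218-5p every one lies below.

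The arms of the miR-27b hairpin moved unequally. miR-27b-5p, its minor arm, stood at 1047, 994, 369 and 613 normalized counts in microcarrier donors 1 to 4, against 219, 256, 26.4 and 44.0 in plate donors 1 to 4. In perfusion the same donors had 34.7, 89.4, 18.9 and 41.2, so the microcarrier libraries were the highest of the 3 cultures. It rose by 2.93 ± 0.41 against plates (adjusted p = 0.00196) and by 4.10 ± 0.41 against perfusion (adjusted p = 4.57e-05). The major arm miR-27b-3p had 160507, 149108, 57555 and 125027 on microcarriers, against 121171, 114803, 38189 and 42355 on plates. Its difference of 0.73 ± 0.22 had the same sign in 4 of 4 donors and missed the threshold (adjusted p = 0.0614).

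For each read of the 5p arm there were 153, 150.0, 156 and 204 reads of the 3p arm in microcarrier donors 1 to 4, against 554, 448, 1448 and 963 in plate donors 1 to 4. The ratio was thus nearly the same in 3 of the microcarrier libraries and spread widely on plates. The arm ratio, log2 of 5p minus log2 of 3p, was higher on microcarriers by 2.20 ± 0.32 (adjusted p = 0.00169). This was the 1 call among 52 hairpins with both arms listed (1.92%), and 8 had an unadjusted p under 0.05. A ratio within a library does not change with its scaling. Across the 52 hairpins, the arms had the same sign of difference in 31. The miR-129a ratio was lower by 2.43 ± 0.60 on the log2 scale and just outside the threshold (adjusted p = 0.0519).

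**Figure D4:**
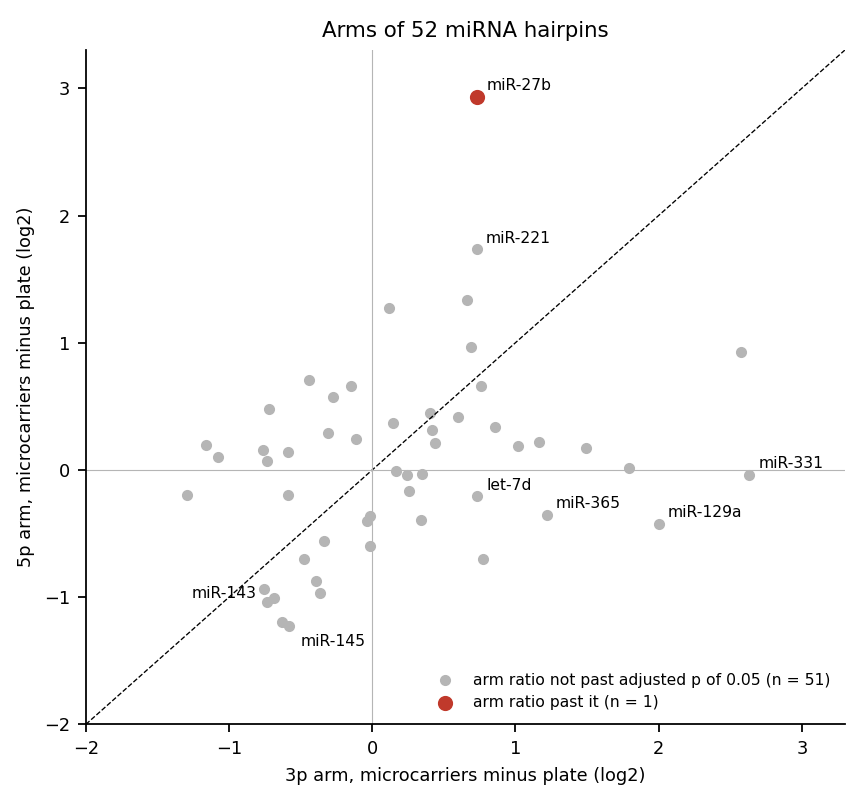
Fitted microcarrier minus plate log2 difference of the 3p arm (x axis) and 5p arm (y axis) for 52 hairpins, with equal change on the dashed line. miR-27b, in red, lies at 0.73 and 2.93 and is the 1 hairpin whose arm ratio passed an adjusted p of 0.05.

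miR-221 and miR-222 come from neighbouring genes, share a seed and repress the cell cycle inhibitor CDKN1B in human cells. miR-222 had 6575, 8048, 5253 and 7509 normalized counts in microcarrier donors 1 to 4, against 4833, 2537, 1969 and 975 in plate donors 1 to 4. No library overlapped, and miR-222 rose by 1.62 ± 0.44 (adjusted p = 0.0459). The minor arm miR-221-5p had 779.8, 1310.4, 743 and 1074 on microcarriers, against 860.3, 256, 197 and 151 on plates, so plate donor 1 lay within the microcarrier range. It rose by 1.73 ± 0.43 (adjusted p = 0.0334), with 3 of 4 donors higher. The major arm miR-221-3p, at 19235 ± 3035 on microcarriers and 13645 ± 8206 on plates (SD, n = 4 each), was not called (0.73 ± 0.42). Both calls ended without microcarrier donor 2, 3 or 4 or plate donor 2, 3 or 4, at log2 differences of 1.08 to 1.79 for miR-222 and 1.35 to 1.70 for miR-221-5p. Neither passed without the donor block, at adjusted p of 0.0986 and 0.0819, or in the paired fit of 8 libraries, at 0.0775 and 0.0998. Library totals (adjusted p = 0.0523) and a pseudocount of 0.1 (0.0559) also ended the call of miR-222.

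miR-155-5p, an NF-kB-induced miRNA of inflammatory signalling, stood at 3483, 6105, 3639.8 and 8307 normalized counts in microcarrier donors 1 to 4, against 3433, 2222, 1249 and 1418 in plate donors 1 to 4. The groups did not overlap, but only by the near-equal values of donor 1. It rose by 1.39 ± 0.33 (adjusted p = 0.0283), and the perfusion libraries of the same donors were as high, at 4140.5 to 9848 (microcarriers minus perfusion -0.35 ± 0.33, adjusted p = 0.471). Of 6 inflammation-linked miRNAs it was the 1 called, against 9.13% of all miRNAs, and their median log2 difference was 0.23 against 0.11. miR-146a-5p, a brake on NF-kB signalling, differed by 0.02 ± 0.57, with donor 1 higher by 2.81 on the log2 scale and donors 2 to 4 lower. The miR-155-5p call ended without microcarrier donor 2, 3 or 4 or plate donor 2, 3 or 4 (1.07 to 1.44) and without the donor block (adjusted p = 0.0819).

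Of 10 miRNAs measured from miR-17-92 and related clusters, which promote proliferation, 1 was higher, none was lower and 9 were not called. Of all miRNAs, 5.16% were higher. The median log2 difference of the 10 was 0.69, against 0.11 over all miRNAs. miR-106a, the one called, had 47.9, 33.5, 100.2 and 79.1 normalized counts in microcarrier donors 1 to 4, against 18.4, 9.85, 55.9 and 27.7 in plate donors 1 to 4. The plate donor 2 value stood for only 2 reads. Every donor was higher although the groups overlapped, and miR-106a rose by 1.33 ± 0.31 (adjusted p = 0.0282). miR-17-5p, which is near-identical to miR-106a, differed by 0.74 ± 0.29, miR-20a-5p by 0.70 ± 0.28 and miR-92b-3p by 0.75 ± 0.26, none of them called. The miR-106a call ended without microcarrier donor 2, 3 or 4 or plate donor 1, 2 or 4 (1.24 to 1.34) and without the donor block (adjusted p = 0.185).

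The other rises belonged to separate families. miR-129a-3p, whose family is enriched in brain, had 49.5, 166, 472 and 325 normalized counts in microcarrier donors 1 to 4, against 69.9, 14.8, 46.5 and 94.0 in plate donors 1 to 4. The plate donor 2 value stood for only 3 reads. Donor 1 was lower on microcarriers and the other 3 donors were higher, for a log2 difference of 2.00 ± 0.56 (adjusted p = 0.046). Its other arm, miR-129a-5p, differed by -0.42 ± 0.33. miR-574-3p, linked to cartilage differentiation in human stromal cells, had 378 to 694 on microcarriers and 187 to 339.9 on plates, and rose by 0.96 ± 0.24 (adjusted p = 0.0334). miR-100, which represses MTOR in human cells, was the most abundant of the rises, at 58559.5 ± 11444 on microcarriers and 39228 ± 14333 on plates (SD, n = 4 each). It rose by 0.63 ± 0.17 (adjusted p = 0.044), and every donor was higher.

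These 3 calls depended on single libraries. The ones whose removal ended the call were, for miR-129a-3p and miR-100 microcarrier donors 2, 3 and 4 and plate donors 2, 3 and 4 (1.56 to 2.14 and 0.55 to 0.68). For miR-574-3p, they were microcarrier donors 2 and 3 and each plate library (0.84 to 1.09). Without the donor block the adjusted p was 0.122 for miR-129a-3p and miR-574-3p and 0.237 for miR-100, and in the paired fit of 8 libraries it was 0.112 for each. Library totals ended the calls of miR-129a-3p (0.0523) and miR-100 (0.0534), and a pseudocount of 0.1 that of miR-129a-3p (0.0596). The plates listed miR-10390 at 0 throughout, while it stood at 127, 63, 59 and 7 reads in microcarrier donors 1 to 4. No fold is given against a group at 0. In perfusion it had 231, 8, 2 and 4 reads (adjusted p = 0.23 for microcarriers against perfusion).

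On the lower side, let-7c, a let-7 member of the kind that restrains LIN28 and HMGA2, had 2316, 3245, 2653 and 1844 normalized counts in microcarrier donors 1 to 4, against 8247, 6626, 8414 and 12633 in plate donors 1 to 4. All microcarrier libraries were below all plate libraries, and let-7c fell by 1.83 ± 0.28 on the log2 scale (adjusted p = 0.00313). Perfusion libraries were at the microcarrier level, 1819 to 3299 (microcarriers minus perfusion -0.03 ± 0.28, adjusted p = 0.938). It was the 1 called of 10 let-7 rows, where 3.97% of all miRNAs were lower. The median log2 difference of the 10 rows was 0.08, against 0.11 over all miRNAs. Other let-7 rows were not called: let-7a differed by -0.65 ± 0.25, let-7i-5p by 0.19 ± 0.15 and let-7f-5p by -0.03 ± 0.20. let-7 members are near-identical in sequence, and the counting step could split reads between them.

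The neighbour of let-7c, miR-99a-5p, had 10992, 5159.6, 9227 and 7473 on microcarriers, against 12281, 12459.8, 13503 and 51724 on plates. The groups did not overlap, plate donor 4 stood far above the other plates, and the difference of -1.19 ± 0.38 was not called (adjusted p = 0.0686). miR-99a-5p and the raised miR-100 share a seed. The list that holds both also takes in miR-99b, miR-125a, miR-125b and miR-99a-3p, so it is not 1 seed family. Of its 6 rows 1 was higher, none was lower and 5 were not called, where 5.16% of all miRNAs were higher.

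Among 6 smooth muscle and contractile miRNAs measured, 4 were lower, none was higher and 2 were not called, where 3.97% of all miRNAs were lower, with a median log2 difference of -1.11 against 0.11 over all miRNAs. miR-143 and miR-145 are transcribed together in smooth muscle and stroma under serum response factor and repress KLF4 and KLF5. miR-145-5p had 352, 571, 1186 and 454 normalized counts in microcarrier donors 1 to 4, against 724, 1631, 2539 and 1095 in plate donors 1 to 4. It fell by 1.23 ± 0.29 on the log2 scale (adjusted p = 0.0282), and the within-donor differences of -1.04, -1.51, -1.10 and -1.27 lay close together although the groups overlapped.

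miR-143-3p, with 42545, 51255, 59289 and 30687 normalized counts on microcarriers and 56893, 82400.0, 97739 and 66707 on plates, fell by 0.74 ± 0.18 (adjusted p = 0.0285). Its other arm miR-143-5p, at 90.4 to 226 on microcarriers and 236 to 533 on plates, fell by 1.04 ± 0.27 (adjusted p = 0.0386). The muscle miRNA miR-133a-3p, at 10.5 to 22.3 on microcarriers and 29.6 to 40.8 on plates, fell by 1.17 ± 0.32 (adjusted p = 0.046). The counts behind it were low, 5 to 28 reads on microcarriers and 6 to 74 on plates. The 2 uncalled were miR-145-3p (-0.58 ± 0.58) and miR-1 (-1.27 ± 0.49). miR-1 had 632, 940.0, 285 and 174 on microcarriers, against 652, 1000.1, 825 and 1862 on plates, so that only donors 3 and 4 were far apart.

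Each of miR-145-5p, miR-143-3p and miR-133a-3p was also lower on microcarriers than in perfusion, by -1.59 ± 0.29 (adjusted p = 0.00248), -0.94 ± 0.18 (adjusted p = 0.00337) and -1.87 ± 0.32 (adjusted p = 0.0024). The remaining call of the group, miR-143-5p, did not pass against perfusion (-0.58 ± 0.27, adjusted p = 0.145), and neither did miR-145-3p (-0.44 ± 0.58) or miR-1 (0.44 ± 0.49, adjusted p = 0.538). The calls of miR-145-5p, miR-143-3p and miR-143-5p against plates ended without microcarrier donor 2, 3 or 4 or plate donor 2, 3 or 4, at log2 differences of -1.39 to -1.13, -0.82 to -0.61 and -1.14 to -0.89. That of miR-133a-3p ended without any 1 of the 8 libraries (-1.39 to -0.998). None of the 4 passed without the donor block (adjusted p = 0.122 for each) or in the paired fit of 8 libraries (0.0632 to 0.112).

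miR-218-5p, which lies within SLIT genes in human and represses ROBO1, had 287, 232, 93.1 and 42.9 normalized counts in microcarrier donors 1 to 4, against 719.7, 2054, 319 and 365 in plate donors 1 to 4. All microcarrier libraries were below all plate libraries, and miR-218-5p fell by 2.32 ± 0.39 on the log2 scale (adjusted p = 0.0038). Its level varied widely among donors of either culture, and the fit without the donor block did not call it (adjusted p = 0.122). With donor 4 left out in both cultures the calls of miR-218-5p (adjusted p = 0.0676) and miR-218b (adjusted p = 0.0693) also ended. miR-218b, the other called row, followed it at a ratio of 2.00 to 2.11 in every library, so the 2 rows share reads and are 1 observation. miR-218-5p was lower than in perfusion too, by -1.49 ± 0.39 (adjusted p = 0.017). Among 16 osteogenesis-linked rows, 1 was higher (miR-222), 3 were lower (miR-133a-3p and both miR-218 rows, which are 1 observation) and 12 were not called. Of all miRNAs, 5.16% were higher and 3.97% lower. The median log2 difference of the list, with both miR-218 rows in it, was -0.60, against 0.11 over all miRNAs.

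miR-196b-5p, encoded in a HOX cluster, had 328, 365, 563 and 479 normalized counts in microcarrier donors 1 to 4, against 505, 1005, 1276 and 1260.4 in plate donors 1 to 4. It fell by 1.16 ± 0.25 on the log2 scale (adjusted p = 0.0177), with all donors lower and donor 1 the least. Its near-identical relative miR-196a differed by -1.11 ± 0.36 (adjusted p = 0.0686). Of 6 HOX-cluster miRNAs 1 was lower and 5 were not called, where 3.97% of all miRNAs were lower. Their median log2 difference was -0.65, against 0.11 over all miRNAs. The miR-196b-5p call ended without microcarrier donor 2 or 3 or plate donor 2 or 3 (-1.22 to -1.08) and without the donor block (adjusted p = 0.0819).

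The last of the lower calls were miR-628-5p and miR-193a-5p. miR-628-5p had 14.3 to 29.4 normalized counts on microcarriers and 44.3 to 73.7 on plates, and its within-donor differences of -1.64, -1.56, -1.45 and -1.30 spanned the narrowest range of the 23. The counts behind them were low, 13 to 40 reads on microcarriers and 9 to 181 on plates. miR-628-5p fell by 1.49 ± 0.35 (adjusted p = 0.0282). miR-193a-5p had 119 to 379 on microcarriers and 224 to 961 on plates, and fell by 0.97 ± 0.27 (adjusted p = 0.046). The miR-628-5p call ended without microcarrier donor 2 or 3 or any plate library (-1.62 to -1.31), and that of miR-193a-5p without any library but microcarrier donor 1 (-1.07 to -0.77) and without the donor block (adjusted p = 0.248).

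Neighbouring genes were followed beyond the named families. In the RefSeq table of Sscrofa11.1, 202 of the 252 rows matched 1 miRNA gene, 24 matched several and 26 none. Genes with gaps of at most 10000 bases formed 21 groups with mature miRNAs of 2 or more genes in the table. The groups held 2 to 5 mature miRNAs, some of them 2 arms of 1 hairpin. How many groups would lie on 1 side by chance was not computed. In 12 of the 21, every mature miRNA lay on the same side of 0. Among them MIR183, MIR96 and MIR182, known from sensory organs, had differences of 0.81 to 0.94, with miR-182 (0.94 ± 0.27) just outside the threshold (adjusted p = 0.0508). Both mature miRNAs of MIR195 and MIR497, which restrain the cell cycle, lay below 0, at -0.51 ± 0.40 and -1.01 ± 0.40, and neither was called.

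**Figure D5:**
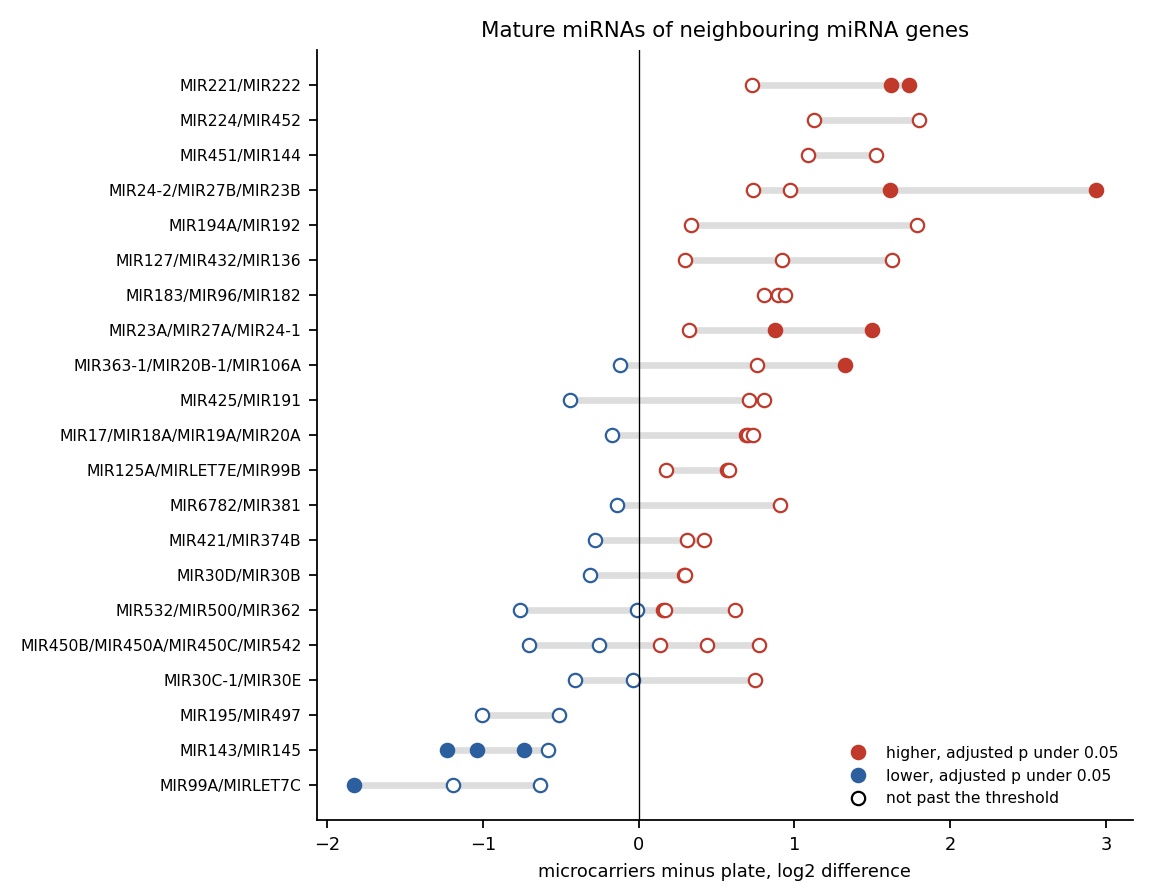
Each row is 1 of 21 groups of neighbouring miRNA genes and each circle a mature miRNA at its fitted microcarrier minus plate log2 difference (x axis). Filled circles passed an adjusted p of 0.05, and the groups run from MIR221/MIR222 (median 1.62) at the top to MIR99A/MIRLET7C (median -1.19) at the bottom.

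Markers of blood, endothelium and liver were present in both cultures, and none was called. The 3 red cell markers summed to 2074 to 6742 normalized counts on microcarriers and 568 to 2528 on plates, with differences of 1.52 ± 0.70 for miR-451, 1.09 ± 0.50 for miR-144 and 1.09 ± 0.70 for miR-486. The 4 white blood cell markers summed to 274 to 2110.4 on microcarriers and 131 to 700.5 on plates, with a median difference of 1.03. miR-150, of lymphocytes, had 649.8, 156, 127 and 83.6 on microcarriers, against 236, 88.7, 20.7 and 44.4 on plates, and was higher in 4 of 4 donors without a call (1.43 ± 0.72, adjusted p = 0.201). Both arms of the endothelial miR-126 were higher in 4 of 4 donors, miR-126-3p by 0.66 ± 0.46 and miR-126-5p by 1.33 ± 0.72, without a call. In donor 2 miR-126-3p was nearly equal, at 1572 on microcarriers and 1557 on plates. Microcarrier donor 1 held the highest sum of each of these lists. In perfusion the red cell marker miR-451 had only 23.9, 299, 181 and 78.0, so microcarriers were higher than perfusion by 4.48 ± 0.70 (adjusted p = 0.00114). Of 3 liver and gut markers none was called, with a median of 0.38.

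The 8 serum-borne miRNAs summed to 11406 to 18303 normalized counts on microcarriers and 8869 to 9771 on plates, so those sums did not overlap. As shares of the normalized counts they held 0.830% to 1.55% on microcarriers and 0.714% to 0.863% on plates, and these shares overlapped. No member was called (median 0.68). No marker of these lists was at 0 in all 8 libraries. Their part in the differences of the called miRNAs was not tested.

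The remaining lists held few or no calls, and their counts stand against 5.16% higher and 3.97% lower among all miRNAs. Of 10 cartilage-linked miRNAs 1 was lower (miR-145-5p) and 9 were not called, with a median of 0.03. Of 13 flow-responsive miRNAs 2 were higher (miR-23b and miR-155-5p), 2 were lower (miR-143-3p and miR-145-5p) and 9 were not called. Of 8 neural rows 1 was higher (miR-129a-3p), 2 were lower (the rows of miR-218, which are 1 observation) and 5 were not called. The uncalled were the rows of miR-9, which share reads, and miR-129a-5p and miR-129b, which also share reads. Of the 14 stromal marker rows 1 was higher (miR-100), 2 were lower (miR-143-3p and miR-145-5p) and 11 were not called, with a median of -0.26. Of 3 muscle markers 1 was lower (miR-133a-3p), and the others, miR-499-5p (-0.90 ± 0.30) and miR-1, were not called. None was called of 4 miR-29 rows (median 0.89), 10 miR-30 rows (median -0.17) or 8 rows of the miR-15/16 family (median 0.04). The same held for the 3 rows of the epithelial list, miR-183, miR-182 and miR-96-5p (median 0.90). It also held for 9 rows of the imprinted DLK1-DIO3 cluster (median 0.30).

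Donors differed in how far their 2 libraries lay apart. Over the 139 miRNAs whose mean log2 level corresponded to 100 normalized counts or more, the SD of the microcarrier minus plate difference was 0.80 in donor 1, 1.01 in donor 2, 0.92 in donor 3 and 1.42 in donor 4. Across all 252 miRNAs, the differences of donors 3 and 4 correlated at Pearson's r = 0.58 (Spearman's rho = 0.58), those of donors 2 and 3 at 0.56 (0.58) and those of donors 1 and 3 at 0.42 (0.34). Donors 2 and 4 were least alike, at 0.16 (0.20). These are descriptions across miRNAs within pairs of libraries, and miRNAs are not independent replicates. Donor 1 was on the other side of 0 for 2 of the 13 higher calls and near 0 for miR-155-5p.

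A further 15 miRNAs separated the groups without passing the threshold, 4 with every microcarrier library above every plate library and 11 with every one below. Closest to the threshold was miR-148a-3p (-0.59 ± 0.17, adjusted p = 0.0508), at 53444 to 63475 normalized counts on microcarriers and 73148 to 102053 on plates. The calls nearest to it on the other side were miR-24-1-5p (adjusted p = 0.0476) and miR-193a-5p, miR-133a-3p and miR-129a-3p (0.046 each).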

How the data were processed

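Small RNA libraries had been made with a NEBNext kit from vesicle RNA, per the labels' protocols. The submitters' processing notes name Bowtie as aligner. Neither its version nor build, annotation or counting method is given in the sources used here. Deposited values are a signal, called a normalized read count in the file header. In each library 100.0% of values were whole multiples of 1 step, to a tolerance of 0.001 reads, and those steps matched median-of-ratios size factors computed from the same rows. Reads were computed from these steps and are an inference, not a deposited count. No listed value stood for fewer than 2 reads.

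Log2(value + 1) was fitted with limma 3.58.1 (trend) in R 4.3.3 over all 12 libraries with culture and donor as factors. A miRNA needed a value of 1 or more in 4 libraries, which all 252 met. Benjamini-Hochberg adjustment ran over all 252. Differences on this scale understate the change of low miRNAs. Same-numbered samples came from the same animal, and the correlation between microcarrier and plate deviations of the same donor was 0.02 to 0.67. No replicates agreed within sampling noise (chi-square per degree of freedom of 133 or more). Arm ratios were fitted in the same way, and shares were compared by exact permutation.

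Named miRNAs were the calls, their other arms, the 10 most abundant, and up to 3 members of each of 25 lists with the smallest p. miR-17-5p, miR-20a-5p, miR-24-3p, miR-27a and miR-146a-5p were added after their values were seen. miR-195 was also outside this rule and is given as the neighbour of miR-497. Members and lists were chosen with earlier results of these data known, so a list's direction is not independent evidence. Reads were shared between rows of miR-9, between miR-199a-3p and its b copy, and between miR-129b and miR-129a-5p. Alternatives were the fit without the donor block, pseudocounts of 0.1 and 10, other filters, library totals, 8 libraries, limma-voom on the computed reads, and each library or donor left out. Python 3.11.15, NumPy 2.4.6, SciPy 1.17.1 and pandas 2.3.3 were used.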

Additional observations from a re-analysis of the deposited data

Results flagged for a closer look

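Of 148 groups of 4 libraries examined (74 named miRNAs in each culture), 11 held a library whose gap to the nearest other exceeded Dixon's 95% critical share of the group's log2 range, where chance flags about 1 in 20. On microcarriers, donor 1 was low for let-7i-5p (71416 normalized counts, others 101737 to 107418) and high for miR-126-5p (140.5, others 42.9 to 47.2). Donor 3 was low for miR-182 (238, others 430.2 to 479). Donor 4 was low for miR-497 (6.78, others 10.2 to 10.5) and high for miR-125b (10063, others 5049 to 5278) and miR-96-5p (36.2, others 18.4 to 19.1). On plates, donor 1 was low for miR-210 (77.6, others 163 to 179) and high for miR-126-5p (61.4, others 14.8 to 18.8). Donor 3 was high for miR-143-5p (533, others 236 to 255). Donor 4 was high for let-7f-5p (96295, others 55180 to 57032) and miR-99a-5p (51724, others 12281 to 13503).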

How the results depend on the processing

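With donor as a block, 23 miRNAs were called, 13 higher and 10 lower. Without that replicate block the count was 6, 4 higher and 2 lower. In a paired fit of only the 8 microcarrier and plate libraries it was 7, 3 and 4, and in limma-voom on the computed reads with the block it was 40, 21 and 19. Leaving out libraries or donors moved it between 5 and 36, the higher calls between 3 and 18 and the lower between 1 and 18. All 23 were kept without a filter, with a pseudocount of 10 (32 calls), a filter at 10 (27) and limma-voom, 20 with a pseudocount of 0.1 and 19 under library totals (21). The 6 and the 7 calls were all among the 23. Arm ratios gave 1 call, 2 with a pseudocount of 10 and 1 to 3 without a donor, and that of miR-27b held throughout (1.88 to 2.41).

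No called miRNA changed direction under any of the 20 alternatives. Of named miRNAs without a call, 6 changed sign when libraries or donors were left out: miR-145-3p (-1.24 to 0.37), let-7f-5p (-0.20 to 0.20), miR-199a-3p (-0.11 to 0.12), miR-193a-3p (-0.90 to 0.053), miR-122-5p (-0.23 to 0.76) and miR-194a-5p (-0.43 to 0.99). The cause was not tested. Seed family sums were not run because no sequence table was used here, nor was edgeR, because the deposited values are normalized and the reads computed from them are an inference. Exact sign flips of 4 donor differences, the paired test of shares, cannot go below 0.125. The shallowest library, plate donor 2, lists 28 miRNAs at 0, so low miRNAs are the least certain.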
